A study of Mus musculus with 6 samples.

Results

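NRF2 (gene Nfe2l2) is the transcription factor that switches on the antioxidant and glutathione genes. The gene set followed here holds NRF2 itself, its repressor Keap1, and enzymes and transporters of glutathione, thioredoxin, NADPH, peroxide and quinone metabolism, 38 genes in all. Of these, 35 had a probe set assigned to that gene alone on the array, among 18193 such genes, and each was read at its brightest probe set. Prdx1 shares its probe sets with another gene, and Prdx6 and G6pdx have none under those names here.

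The RNA came from 344SQ tumours grown under the skin of syngeneic mice. 344SQ, a lung adenocarcinoma line that spreads widely when injected, was made from a mouse carrying p53R172HdelG/+. All tumours were grown from this 1 line, so the mutant p53 allele is common to the tumour cells of both groups. Host cells within the tumours do not come from the line. Flow sorting of the tumours gave a CD133 high fraction, hybridised to 3 arrays, and a CD133 low fraction, also on 3, where CD133 is the surface glycoprotein encoded by Prom1. The comparison asks which genes differ between the fractions of the tumour, in a study whose title speaks of a metastasis-prone population sensitive to Notch inhibition. No inhibitor-treated sample is named, and the labels do not say whether replicates stand for separate mice or sorts.

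In resting cells KEAP1 hands NRF2 to a ubiquitin ligase for destruction. Oxidants and electrophiles react with cysteines of KEAP1, NRF2 then accumulates and, paired with a small MAF protein, binds antioxidant response elements in the promoters of its targets. The targets refill reduced glutathione and NADPH, remove peroxides and conjugate toxic compounds. In human lung adenocarcinoma the pathway is often switched on by mutation of KEAP1 or NFE2L2.

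The core of the antioxidant response element, TGACNNNGC or its reverse complement GCNNNGTCA, was looked for on both strands of RefSeq promoter windows (GRCm38.p6, 250 bases before to 50 after the start). It was present in 9 of the 29 measured genes that have a promoter entry (31.0%), against 16.2% of all 14452 genes of the array with one. Counted by promoter it was present in 9 of 37 (24.3%), against 12.4% of all 32851 promoters. A match is a description of the letters and not a bound site. The 7 windows whose match begins before the start are shown because they carry the letters through which the pathway is known to act. They lie at chr2:75704875-75704913 (minus strand, Nfe2l2), chr3:122245403-122245451 (plus, Gclm), chr10:82859094-82859142 (plus, Txnrd1), chr9:86695912-86695940 (minus, Me1), chr16:90220686-90220734 (plus, Sod1), chr3:107895792-107895840 (plus, Gstm5) and chr1:21240444-21240492 (plus, Gsta3). Each is read 5′ to 3′ on the strand of its gene, with the match in capitals.
Nfe2l2: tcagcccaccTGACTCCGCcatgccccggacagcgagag
Gclm: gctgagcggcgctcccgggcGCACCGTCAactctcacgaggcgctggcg
Txnrd1: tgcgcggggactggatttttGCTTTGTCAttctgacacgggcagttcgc
Me1: cggctcggccgatgccgccgTGACTCAGC
Sod1: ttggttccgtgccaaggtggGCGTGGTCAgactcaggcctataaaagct
Gstm5: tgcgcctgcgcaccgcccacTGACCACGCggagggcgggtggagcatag
Gsta3: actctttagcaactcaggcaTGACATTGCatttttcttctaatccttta
The Me1 match runs over its start. The matches in Srxn1 and Pgd lie after the start and are not shown. The 9 genes with a match had a median log2 difference, CD133 high minus CD133 low, of −0.13, with 3 above 0. The 20 without one had a median of −0.32, also with 3 above 0. Sequence outside the window was not searched, so a gene counted as without a match may still have one farther from its start. Measured genes with no promoter entry are in neither group.

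Several facts of the arrays bear on every value below. CD133 high replicate 1 resembled the CD133 low arrays (mean Spearman rho 0.979 across genes, which are not independent) more than the other CD133 high arrays (0.943). The hybridisation controls averaged 10.38, 11.29 and 11.04 on CD133 high replicates 1, 2 and 3, against 10.19 to 10.51 on the CD133 low arrays, and Gapdh at its 3′ end exceeded its middle by −0.13, 0.44 and 0.46 against −0.09 to −0.07 on the log2 scale. The 8 epithelial markers had summed log2 levels of 14.25 to 14.73 in CD133 high against 14.40 to 14.60 in CD133 low, with 5 of the 8 lower and a median difference of −0.14. The 6 pan-leukocyte markers summed to 15.54, 14.96 and 14.80 against 15.46 to 15.50, with 4 of the 6 lower and a median of −0.58, and the 6 fibroblast markers to 15.63, 15.81 and 16.05 against 15.59 to 15.72, so neither fraction was free of other cells' RNA. Among T and natural killer cell markers 4 of 7 fell, and of the B cell markers 3 of 4. Their summed log2 levels were 10.53 to 10.83 in CD133 high against 12.37 to 12.81 in CD133 low, and 9.56 to 10.45 against 12.09 to 12.47. In none of the epithelial, lung epithelial, pan-leukocyte, macrophage, neutrophil, fibroblast, endothelial or red blood cell lists did a marker pass, and no marker was listed at 0. The part of these cells in the results below was not tested, and in sorted bulk RNA fewer cells of a type and less RNA per cell cannot be told apart.

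Across the 6 arrays, none of the 35 genes passed the test (limma, Benjamini-Hochberg adjusted p under 0.05 over all 45037 probe sets), where 0.253% of all genes did (0.022% higher and 0.231% lower). The smallest adjusted p was 0.183, and a missed threshold with 3 arrays a fraction does not show that levels were alike. At an unadjusted p under 0.05 there were 2 genes higher and 9 lower in CD133 high, 31.4% of the set against 18.2% of all genes (8.3% higher and 9.94% lower). The balance turned once the hybridisation controls entered the fit as a covariate, with 6 higher and 2 lower (4.76% and 4.1% of all genes), and CD133 high replicate 1 alone against the CD133 low arrays gave 5 higher and 1 lower (5.82% and 5.62%). Of the 35 differences 27 lay below 0 (77.1%, against 49.8% of all genes), and the median was −0.16 on the log2 scale, against 0.00 over all genes. The fractions did not overlap for 9 of the 35 (25.7%), a share near the background of 23.6%. Those were Gsr and Me1, with CD133 high above CD133 low (5.71% against 10.8% of all genes), and Keap1, Gsta4, Gstm1, Gstp1, Gpx1, Sod1 and Cbr1, with CD133 high below (20% against 12.8%).

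**Figure D1:**
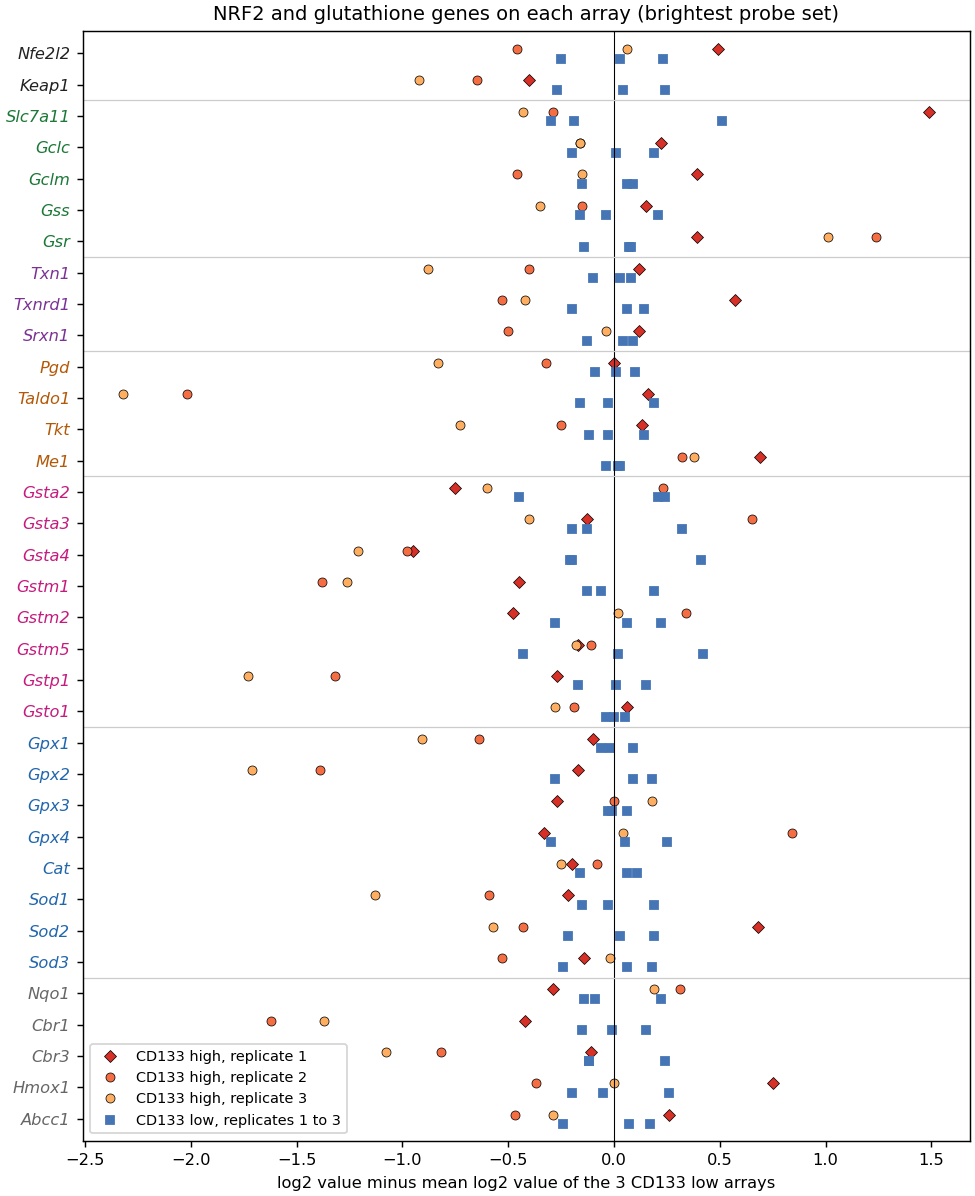
Log2 value of each of the 35 genes on each array (x axis), at its brightest probe set, as the difference from the mean of the 3 CD133 low arrays. Diamonds and circles are the CD133 high arrays and squares the CD133 low arrays; lines part the roles. Taldo1 in CD133 high replicates 2 and 3, at −2.02 and −2.32, lies farthest from the CD133 low arrays, while replicate 1 lies at 0.16.

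CD133 high replicate 1 stood above both other CD133 high arrays in 25 of the 35 genes (71.4%), as it did in 38.4% of all genes, and above the other 5 arrays in 12 (34.3%, against 15.5%). Measured from the CD133 low mean, the median of the set was −0.11 on CD133 high replicate 1 and −0.40 on each of replicates 2 and 3. On the CD133 low arrays it was 0.04, 0.07 and −0.12. Replicates 2 and 3 both lay below all CD133 low arrays in 18 genes (51.4%, against 29.2% of all genes) and above them in 2 (5.71%, against 28.3%). Without replicate 1, 12 of the 35 genes passed (limma, 34.3%, against 26.3% of all genes). In that fit of 2 against 3 arrays Gsr rose (2.86% against 11.7% of all genes higher), while Keap1, Txn1, Taldo1, Gsta4, Gstm1, Gstp1, Gpx1, Gpx2, Sod1, Cbr1 and Cbr3 fell (31.4% against 14.6% lower). The hybridisation controls were high on replicates 2 and 3. With them as a covariate Taldo1 differed by −0.05 in place of −1.39, Cbr1 by −0.48 in place of −1.13, Gstp1 by −0.43 in place of −1.10 and Gpx2 by −0.33 in place of −1.09. Gstm1 differed by −0.54, Sod1 by −0.40, Cbr3 by −0.27, Gpx1 by −0.16 and Gsr by 0.36 in that fit, each less than without the covariate by over 1.5 times. Keap1 (−0.54), Gsta4 (−1.14) and Me1 (0.68) moved by less than that, and none of the 35 passed. The excess of the Gapdh 3′ end over its middle was also high on replicates 2 and 3 (0.44 and 0.46, against −0.13 on replicate 1). On replicates 2 and 3 the hybridisation signal, the Gapdh excess and the fraction cannot be told apart. This also holds for the genes that passed without replicate 1.

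Nfe2l2 showed no difference beyond its spread, while its repressor was lower in CD133 high without passing the test. Nfe2l2 had log2 values of 12.16, 11.21 and 11.73 on the CD133 high arrays, against 11.70, 11.42 and 11.90 on the CD133 low arrays, a difference of 0.03 (95% interval −0.61 to 0.67, adjusted p = 0.964). The ranges overlap, with the highest and the lowest array both in CD133 high. Its dimmer probe set overlapped as well, at 10.36, 8.16 and 8.86 against 8.98, 8.17 and 8.66, a difference of 0.52 (95% interval −0.77 to 1.82). Keap1, the adaptor that marks NRF2 for destruction, read 8.55, 8.30 and 8.03 in CD133 high, against 8.99, 9.19 and 8.68 in CD133 low. All 3 CD133 high arrays were below all CD133 low arrays, with a difference of −0.66 (SE 0.21, adjusted p = 0.297), or 0.633 of the CD133 low level. Its dimmer probe set differed by −0.53 (adjusted p = 0.353), and without replicate 1 Keap1 fell by 0.79 (adjusted p = 0.0376).

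Glutathione is built from cysteine, which Slc7a11 brings in as cystine, by the ligase subunits Gclc and Gclm and by Gss, and Gsr reduces it after use. Gsr had the largest positive difference of the set: 10.35, 11.20 and 10.97 in CD133 high, against 10.04, 10.03 and 9.82 in CD133 low, 0.88 on the log2 scale (SE 0.24, adjusted p = 0.285) or 1.84 times. No array of the fractions overlapped, and Gsr rose by 1.12 without replicate 1 (adjusted p = 0.00577). Its other probe set did not follow: it read 10.55, 9.86 and 10.04, against 10.43, 10.19 and 9.98, a difference of −0.05 (95% interval −0.58 to 0.48). The synthetic steps differed little, Gss by −0.12 (8.58, 8.28 and 8.08, against 8.39, 8.64 and 8.27), Gclc by −0.03 (95% interval −0.46 to 0.39) and Gclm by −0.07 (95% interval −0.63 to 0.49). For Slc7a11 the 3 CD133 high arrays disagreed, with 10.32, 8.54 and 8.40 against 9.34, 8.64 and 8.53, so that the difference of 0.25 had a 95% interval of −1.01 to 1.51. Its other probe set read 9.83, 8.36 and 9.05, against 8.49, 7.73 and 8.39, a difference of 0.88 (95% interval −0.06 to 1.82) with replicates 2 and 3 not low. A second probe set of Gclm also lay above, at 7.48, 8.06 and 8.18 against 7.55, 7.20 and 7.49 (0.49, 95% interval −0.07 to 1.06).

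Thioredoxin genes showed no difference larger than their spread. Txn1, the cytosolic thioredoxin, read 13.31, 12.79 and 12.31 in CD133 high, against 13.27, 13.22 and 13.09 in CD133 low (−0.39, SE 0.27, adjusted p = 0.473). Only replicates 2 and 3 lay under the CD133 low arrays, and without replicate 1 Txn1 fell by 0.64 (adjusted p = 0.0495). Srxn1, the sulfiredoxin that repairs over-oxidised peroxiredoxins, read 9.43, 8.81 and 9.27, against 9.35, 9.18 and 9.40 (−0.14, adjusted p = 0.729). Txnrd1, the reductase that recharges thioredoxin, was highest of all 6 arrays in CD133 high replicate 1, at 12.31, and lowest in replicates 2 and 3, at 11.21 and 11.32, against 11.54 to 11.88 in CD133 low (−0.13, 95% interval −0.86 to 0.61).

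Taldo1, transaldolase of the non-oxidative pentose phosphate branch, read 11.65, 9.47 and 9.17 in CD133 high, against 11.46, 11.68 and 11.33 in CD133 low. The 6-array difference of −1.39 had an SE of 0.62 (adjusted p = 0.328), with replicate 1 inside the CD133 low range, and was −0.05 with the hybridisation controls as a covariate. Without replicate 1 Taldo1 fell by 2.17 (SE 0.15, adjusted p = 0.00222), the largest difference of the 35 genes in that fit. Tkt, the transketolase that works beside it, differed by −0.27 (95% interval −0.85 to 0.30), and Pgd, which makes NADPH in the oxidative branch, by −0.39 (95% interval −0.93 to 0.16). Me1, the cytosolic malic enzyme that makes NADPH from malate, went the other way, with 10.33, 9.96 and 10.02 against 9.60, 9.66 and 9.67. Its fractions did not overlap and replicate 1 was the highest array, with a difference of 0.46 (SE 0.15, adjusted p = 0.297) or 1.38 times, and a dimmer probe set at 0.02.

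**Figure D2:**
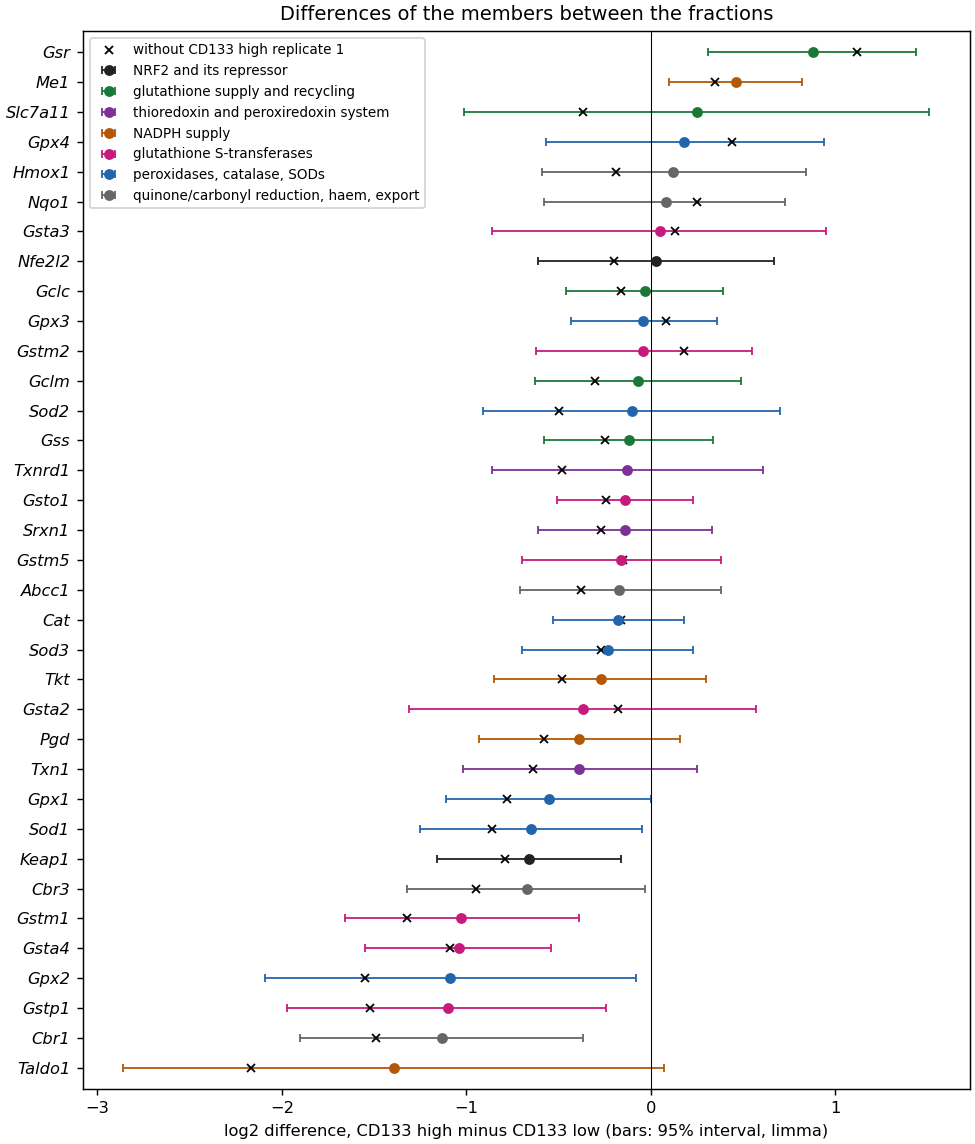
Difference of each gene between the fractions (log2, CD133 high minus CD133 low; points, coloured by role) with its 95% interval from limma over 3 and 3 arrays; crosses give the difference without CD133 high replicate 1. Gsr lies highest at 0.88 and Taldo1 lowest at −1.39, and for Slc7a11 and Hmox1 the cross lies on the other side of 0, at −0.37 and −0.19.

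Glutathione S-transferases join glutathione to electrophiles. Gsta4, which acts on the lipid peroxidation product 4-hydroxynonenal, had the smallest p of the set and a similar value on every CD133 high array: 8.73, 8.70 and 8.47, against 9.47, 10.09 and 9.48 in CD133 low. The difference was −1.04 (SE 0.21, adjusted p = 0.183), or 0.485 of the CD133 low level, and −0.95 for replicate 1 alone against −1.09 without it (limma adjusted p = 0.0247 without replicate 1). Gstm1, of the mu class, read 9.43, 8.50 and 8.62, against 9.82, 10.07 and 9.75 (−1.03, SE 0.27, adjusted p = 0.276), with all 4 of its probe sets below 0, between −1.03 and −0.40. Gstm1 shares sequence with its mu-class neighbours, and its brightest probe set is of the kind that may hybridise to them. Gstp1, the pi-class enzyme, read 12.01, 10.96 and 10.55, against 12.29, 12.43 and 12.11 (−1.10, SE 0.37, adjusted p = 0.297).

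In Gstp1, as in Gstm1, the CD133 high arrays all lay below, but replicate 1 stood close to the CD133 low arrays. The other transferases overlapped between the fractions. Gsto1, Gstm5 and Gstm2 differed by −0.14, −0.16 and −0.04, and each 95% interval held 0. The liver-type alpha-class enzymes Gsta2 and Gsta3 lay near the level of 5 below which values were taken as dim, with means of 4.65 and 4.86 in CD133 high against 5.02 and 4.82 in CD133 low, so no fold is given for them.

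Of the enzymes that remove peroxide and superoxide, Gpx1, Gpx2 and Sod1 had an unadjusted p under 0.05. Sod1, the cytosolic copper-zinc superoxide dismutase, read 11.78, 11.41 and 10.87, against 11.97, 12.19 and 11.85 (−0.65, SE 0.25, adjusted p = 0.305). Gpx1, the main cytosolic glutathione peroxidase, read 12.81, 12.27 and 12.00, against 13, 12.89 and 12.85 (−0.55, SE 0.23, adjusted p = 0.319). In both the fractions did not overlap, by a narrow margin in replicate 1. Gpx2, the epithelial and gut-type peroxidase, read 6.80, 5.58 and 5.26, against 7.06, 7.15 and 6.69, and here replicate 1 overlapped CD133 low (−1.09, SE 0.42, adjusted p = 0.305).

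The other 5 genes of this group overlapped at their brightest probe sets. Catalase (Cat) differed by −0.18 (95% interval −0.53 to 0.18), while its other probe set lay lower without overlap, at 9.98, 9.77 and 10.16 against 10.42, 10.19 and 10.43 (−0.38, adjusted p = 0.321), and the extracellular enzymes Gpx3 and Sod3 by −0.04 and −0.23. Sod2, the mitochondrial manganese dismutase, was again highest in CD133 high replicate 1, at 12.08, with 10.97 and 10.83 in replicates 2 and 3, against 11.18 to 11.59 in CD133 low (−0.10, 95% interval −0.91 to 0.70). Gpx4, which reduces lipid peroxides in membranes, gave 0.18 at one probe set and −0.79 at the other (adjusted p = 0.781 and 0.325).

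Carbonyl reductases reduce quinones and aldehydes with NADPH. Cbr1 read 7.97, 6.77 and 7.02 in CD133 high, against 8.38, 8.54 and 8.24 in CD133 low, with no overlap (−1.13, SE 0.32, adjusted p = 0.294, or 0.456 of the CD133 low level). Cbr3 read 9.0, 8.29 and 8.03, against 8.99, 9.35 and 8.99 (−0.67, SE 0.27, adjusted p = 0.312). The pair were alike in that replicates 2 and 3 held the low values, while replicate 1 of Cbr3 lay inside the CD133 low range. Nqo1, the quinone reductase widely read as an NRF2 target, had 5.45, 6.05 and 5.93, against 5.96, 5.65 and 5.60, which interleave (0.08, 95% interval −0.58 to 0.73). These values lay under the median of every array (6.60 to 6.77), and Nqo1 was among the genes left out with the dimmest 50% of probe sets. So near the dim level of 5, they do not show that Nqo1 was unchanged. Hmox1, which opens the haem ring, had 10.22, 9.10 and 9.47, against 9.27, 9.42 and 9.73 (0.12, 95% interval −0.59 to 0.84), and Abcc1, an exporter of glutathione conjugates, differed by −0.17 (95% interval −0.71 to 0.38).

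The per-array values for Slc7a11, Txnrd1, Sod2, Hmox1 and Nqo1 were chosen after their values were seen. Slc7a11, Hmox1, Sod2, Txnrd1 and Nfe2l2 in replicate 1 stood at 1.49, 0.74, 0.68, 0.57 and 0.49 above the CD133 low mean. The mean of replicates 2 and 3 lay below the CD133 low mean for each of these genes at the brightest probe set. Neutrophil markers shared that order: their summed log2 level was 15.36, 14.49 and 13.68 on CD133 high replicates 1, 2 and 3, against 14.68 to 14.97 in CD133 low, and all 4 (S100a8, S100a9, Csf3r and Cxcr2) were highest in replicate 1. The order was not particular to them. Replicate 1 was also the highest array for the sums of epithelial markers (14.73, 14.58 and 14.25, against 14.40 to 14.60) and pan-leukocyte markers (15.54, 14.96 and 14.80, against 15.46 to 15.50). The same held for macrophage markers (15.58, 15.37 and 15.38, against 15.48 to 15.54) and endothelial markers (10.47, 9.99 and 10.11, against 10.12 to 10.33). Replicate 1 was not the highest for the lung epithelial, T and natural killer cell, B cell, fibroblast or red blood cell lists. The part of these cells in those values was not tested. Gsta4 alone among the genes with an unadjusted p under 0.05 differed by less than 0.2 between replicate 1 and the mean of the others, a count made after its values were seen.

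**Figure D3:**
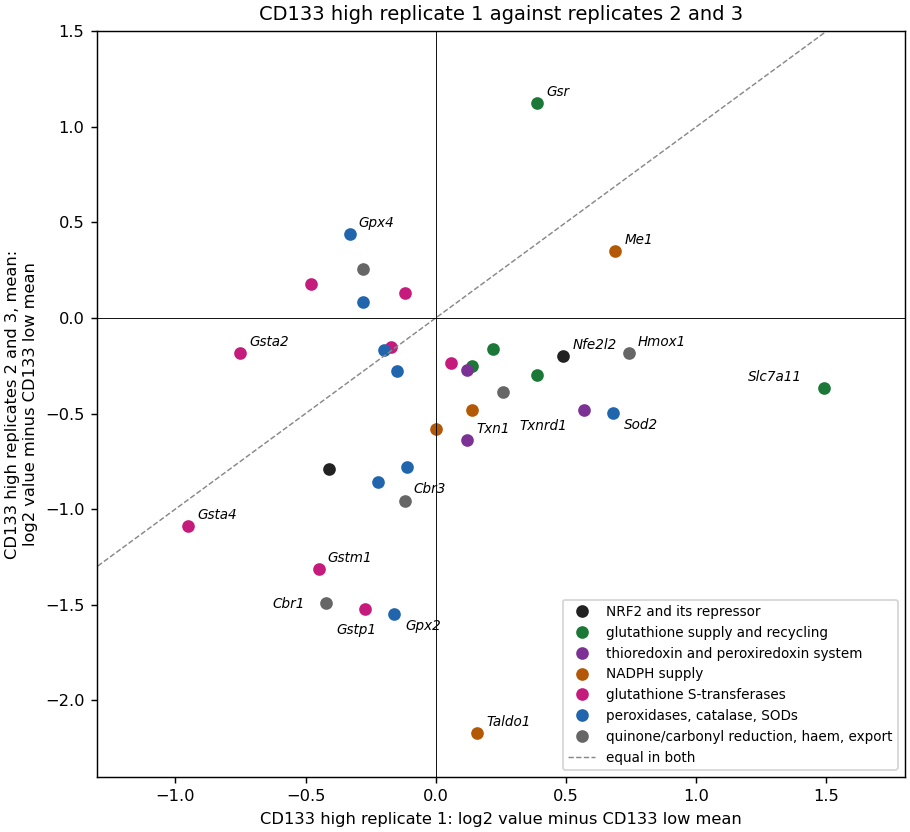
Log2 value minus the CD133 low mean for CD133 high replicate 1 (x axis) against the mean of CD133 high replicates 2 and 3 (y axis), 1 point per gene, coloured by role. Points under the dashed line are lower in replicates 2 and 3 than in replicate 1; Taldo1 and Slc7a11 lie farthest from the line and Gsta4 lies close to it.

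None of the 70 probe sets of the 35 genes passed in the 6-array fit, where 0.0155% of all probe sets were higher and 0.167% lower. At an unadjusted p under 0.05 there were 18, or 25.7%, against 15.7% of all probe sets. Of the 22 genes with several probe sets, 10 had differences of both signs. Srxn1 had a probe set at 5.97, 7.86 and 7.35, against 4.73, 4.98 and 5.26 (adjusted p = 0.254), where its brightest differed by −0.14, and since the CD133 low arrays lie about the dim level of 5 no size is given. Sod2 had one at 10.03, 10.21 and 9.98, against 9.74, 9.33 and 9.34 (0.60, SE 0.17, adjusted p = 0.294), against −0.10 at the brightest. These, and a Sod1 probe set below the dim level on every array, were the 3 dimmer probe sets whose CD133 high arrays all lay above, and the position of each within its transcript was not used here. Another probe set of Pgd, at 11.51, 9.90 and 9.51 against 11.52, 11.54 and 11.36, had a difference of −1.17 (adjusted p = 0.318) where the brightest had −0.39. For Tkt the brightest had −0.27, and its others had −0.79 (adjusted p = 0.305) and 0.09 (adjusted p = 0.863).

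**Figure D4:**
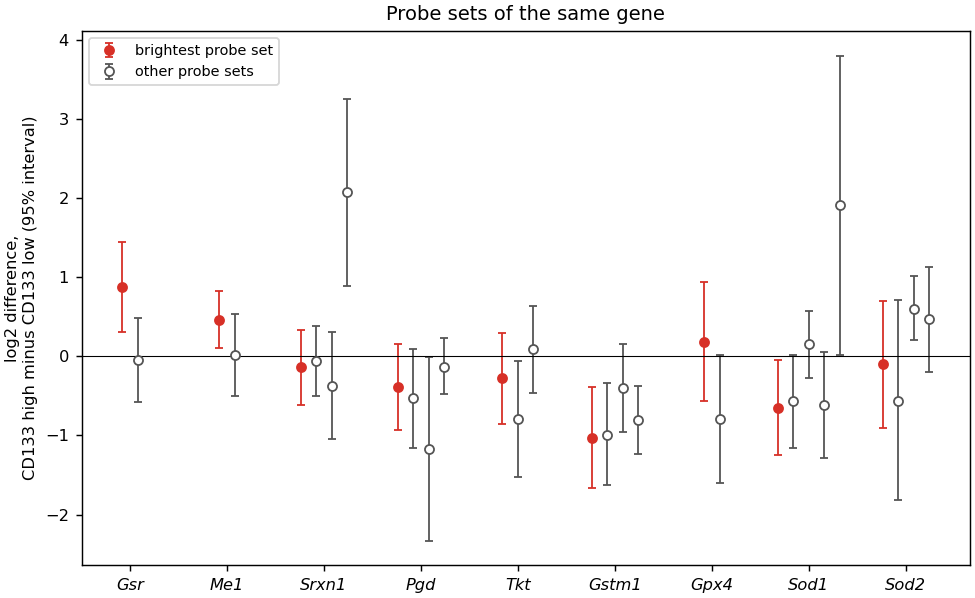
Difference between the fractions (log2, CD133 high minus CD133 low, with 95% interval from limma) at every probe set of 9 genes; filled red points are the brightest probe set and open points the others. Gsr, Srxn1, Tkt, Gpx4, Sod1 and Sod2 have probe sets on both sides of 0, while all 4 of Gstm1 lie below it.

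Around the set lie 77 other genes of the same chemistry, of which 70 were measured. None passed over the 6 arrays, where 6 were higher and 14 lower at an unadjusted p under 0.05 (over all genes, 8.3% were higher and 9.94% lower), and the median difference was −0.08. Ephx1, the microsomal epoxide hydrolase and itself an NRF2 target, came nearest: 7.86, 7.72 and 7.61 in CD133 high, against 8.89, 8.83 and 8.74 in CD133 low (−1.09, SE 0.15, adjusted p = 0.0695). The 3 CD133 high arrays lay close together and well below. Ugdh, which makes UDP-glucuronic acid for glucuronidation, had the opposite sign, with 11.64, 12.00 and 12.12 against 11.06, 10.81 and 11.19 (0.90, SE 0.19, adjusted p = 0.195). Aldh1a1, an aldehyde dehydrogenase, and Idh1, the cytosolic NADPH-making isocitrate dehydrogenase, also lay above without overlap (0.81 and 0.48, adjusted p = 0.297 for each). These genes belong to a list of 23 measured detoxification, iron and NADPH genes. In it 3 of the 23 lay above and 8 of the 23 below without overlap, while over all genes 10.8% lay above and 12.8% below. Its largest difference was that of Blvrb, which lay below (−1.13, SE 0.38, adjusted p = 0.297).

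Among 12 NRF2 partners, competitors and turnover genes the median was 0.20 and 9 differences lay above 0. Mafg, a small MAF partner, read 10.35, 10.29 and 10.38, against 10.10, 9.84 and 10.01 (0.36, SE 0.14, adjusted p = 0.305), with no overlap, and Gsk3b, a kinase that marks NRF2 for a KEAP1-independent ligase, differed by 0.67 (adjusted p = 0.303). Among 24 other glutathione and transferase genes the median was −0.15. Gstt2, a theta-class transferase, read 7.36, 7.89 and 7.65, against 8.34, 8.89 and 8.49 (−0.94, SE 0.22, adjusted p = 0.248), and, like Gsta4, was lower on all 3 CD133 high arrays. Glo1, the glyoxalase that detoxifies methylglyoxal, and Glrx5, a mitochondrial glutaredoxin, lay below as well (−0.56 and −0.43, adjusted p = 0.297 and 0.305). Cth, which makes cysteine from cystathionine, lay above, with 6.71, 7.35 and 7.55 against 6.19, 6.10 and 6.50 (0.94, SE 0.28, adjusted p = 0.297).

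Of 11 other thiol peroxidase and thioredoxin genes, 10 had a difference below 0, with a median of −0.47. Prdx4, the peroxiredoxin of the endoplasmic reticulum, read 11.02, 10.96 and 10.69, against 11.56, 11.71 and 11.67 (−0.75, SE 0.15, adjusted p = 0.183), and the fractions did not overlap. Prdx3 and Txn2, the mitochondrial peroxiredoxin and thioredoxin, differed by −0.55 and −0.36 (adjusted p = 0.301 and 0.303). Prdx4 is made in quantity by antibody-secreting cells, for which no marker list was used. The B cell markers (Cd79a, Cd79b, Ms4a1 and Cd22) were 9.56 to 10.45 in CD133 high against 12.09 to 12.47 in CD133 low in summed log2 level. The part of either cell type in the value of Prdx4 was not tested.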

How the data were processed

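Biotinylated cRNA of 6 samples was read on Affymetrix mouse arrays, per the labels. The range of the deposited numbers shows a log2 scale. The authors' probe summary and normalization method is not given in the sources used. The number of arrays limits the precision. The table holds 45101 probe sets, more than the array type named in the design text carries. After 64 controls were left out, 45037 were tested: 34945 name 1 gene in the platform annotation, 932 several, and 9160 are unnamed here. RefSeq matched 34741, and 0 symbols changed. No pair of arrays held more than 702 exactly equal values as deposited, values of 0 counted.

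A further part of the line's genotype is not reported here. Fractions came from the labels; replicates were numbered in accession order and pair nothing, so a p-value reflects the spread of these arrays, perhaps only a technical one. The fit was limma 3.58.1 in R 4.3.3, a linear model per probe set with a variance trend, two-sided, Benjamini-Hochberg adjusted over all probe sets, threshold 0.05. Differences are CD133 high minus CD133 low, with SEs and 95% intervals from the model. The planned floor for linear values was not needed. Values below 5 were taken as dim. Genes and lists were chosen with earlier results of these data known. Named genes are the whole set by role, with values per array for those whose fractions do not overlap and the 2 smallest p per role, and for the other lists the 2 smallest p and any without overlap among the 4 smallest. Alternatives covered normalization, dim values, variance model, array weights, choice of probe set, a hybridisation covariate and each array left out.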

Additional observations from a re-analysis of the deposited data

How the results depend on the processing

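Over the 6 arrays none of the 35 genes passed, and none did under 9 of the 10 alternatives other than leaving out an array (31 of the 35 were measured without the dimmest 50%) or, with the exception of CD133 high replicate 1, without each array in turn. One of the 9, CD133 high replicate 1 alone, has 1 array in a group and says nothing on stability. Another, the hybridisation covariate, leaned on that same array. With limma's array weights 1 gene was higher and 10 lower; leaving out each array gave 0 to 1 higher and 0 to 11 lower. No paired analysis was possible because the labels number no replicates. Over all probe sets the counts of 7 higher and 75 lower became 13 and 144 with equal 75th percentiles, 11 and 164 without the dimmest 50%, 2133 and 2675 with array weights, 1 and 6 with no variance trend, 31 lower with values below 5 set to 5, 0 and 0 with CD133 high replicate 1 alone, and between 0 and 4277 higher and 0 and 5326 lower with an array left out, the highest without CD133 high replicate 1. The median over the set ranged from −0.30 to −0.11 in all settings. Genes that changed sign, none of them past the threshold in any such setting, were these. With CD133 high replicate 1 alone: Gclc 0.22, Gclm 0.39, Gss 0.14, Txn1 0.12, Txnrd1 0.57, Srxn1 0.12, Taldo1 0.16, Tkt 0.14, Gsta3 −0.12, Gsto1 0.06, Gpx4 −0.33, Sod2 0.68, Nqo1 −0.28 and Abcc1 0.26. With the hybridisation controls as a covariate: Gclc 0.27, Gclm 0.38, Gss 0.02, Txn1 0.01, Txnrd1 0.62, Srxn1 0.22, Tkt 0.06, Gsta3 −0.39, Gsto1 0.02, Gpx4 −0.50, Sod2 0.69, Sod3 0.01, Nqo1 −0.24 and Abcc1 0.35. With probe sets averaged per gene: Gclc 0.02, Gclm 0.21, Txnrd1 0.02, Srxn1 0.37, Gsta3 −0.16, Gpx4 −0.30, Sod1 0.04 and Sod2 0.10. With quantile normalization: Gsta3 −0.06, Gstm2 0.01 and Gpx3 0.06. With array weights: Nfe2l2 −0.08, Slc7a11 −0.26, Gstm2 0.06 and Gpx3 0.04. Without shared-sequence probe sets: Gpx4 −0.79. With an array left out the ranges of those that crossed 0 were −0.20 to 0.27 (Nfe2l2), −0.37 to 0.59 (Slc7a11), −0.23 to 0.18 (Gstm2), −0.14 to 0.08 (Gpx3), −0.19 to 0.37 (Hmox1), −0.16 to 0.06 (Gclc), −0.30 to 0.12 (Gclm), −0.48 to 0.07 (Txnrd1), −0.27 to 0.04 (Srxn1), −0.26 to 0.27 (Gsta3), −0.14 to 0.44 (Gpx4), −0.50 to 0.12 (Sod2), −0.04 to 0.25 (Nqo1) and −0.37 to 0.05 (Gstm5). The causes were not tested.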

Other observations

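Prdx1, a cytosolic peroxiredoxin that NRF2 is known to induce, is measured by 5 probe sets that the annotation also assigns to Gm21399, so the signal cannot be given to Prdx1 alone. Their differences lay between −0.29 and −0.06, none past the threshold. The most different of them read 12.73, 12.31 and 12.31 in CD133 high, against 12.82, 12.80 and 12.60 in CD133 low (adjusted p = 0.442), with CD133 high replicate 1 inside the CD133 low range and replicates 2 and 3 below it.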
